A study of Rattus norvegicus with 24 samples.

Results

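Silica alone was compared with air in rat lung: 6 libraries labelled crystalline silica were set against 6 labelled air, out of 24 libraries in the series, and all 30043 genes of the count table were considered, of which 13322 had enough counts to test. All animals were male Fischer rats of the F344/DuCrl substrain, 3 months old when bought, kept in whole-body inhalation chambers in a study of 29 weeks. The air group breathed clean air throughout. The silica group breathed Min-U-Sil5, a fine respirable quartz, at 15 mg/m3 for 6 hours a day on 5 days of week 3, with air before that and from week 4 on, so the dust had ended long before the study did. A further 12 libraries, from rats given smoke (cigarette smoke at 40 mg/m3 in week 1 and 80 mg/m3 later, 3 hours a day on some days of each week, with air in week 3) or smoke with the same silica week (45 mg/m3 of smoke in week 1, 80 mg/m3 later; called the combined group), were used for 1 side comparison. RNA came from a piece of whole lung, so that fewer cells of a type and less RNA per cell cannot be told apart in any value below.

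Crystalline silica that reaches the alveoli is cleared poorly. Alveolar macrophages take it up through scavenger receptors, the particle damages the lysosome that holds it, and the damage can switch on the NLRP3 inflammasome, the complex that matures interleukin 1 beta. Known features of silica-exposed lung include recruited monocytes and neutrophils, excess surfactant from alveolar type 2 cells, particle-laden macrophages and, with time, fibrotic nodules.

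The 12 libraries held 280484 counts (silica 4) to 4687805 counts (air 6), with a median of 2212692. Replicates were numbered in the order of deposit, and pairs of libraries of 1 group differed by more than counting noise (chi-square per degree of freedom of at least 1.84). The samples were lung by their markers: Sftpc, the surfactant protein of type 2 cells, stood at 4063 to 7577 CPM (median 6369.7) in air and 4345 to 8206 CPM (median 7373) in silica, and Scgb1a1, the club cell secretoglobin of the airways, at 1401 to 2459 CPM (median 1676) and 1795 to 2349.6 CPM (median 1961). CPM here are library-size-scaled counts (edgeR's CPM) adjusted by TMM, an edgeR method that aligns libraries on their bulk of shared genes. Differences are log2 fold changes ± standard error, silica minus air, and a gene was called when its Benjamini-Hochberg adjusted p from edgeR's quasi-likelihood test over all tested genes was under 0.05. A bare number after a change, in parentheses, is that adjusted p. The libraries labelled silica 1 and smoke 1 went against their labels over the genes risen after silica. There silica 1 lay with the air libraries and smoke 1 near the silica libraries, as detailed below. Over the fallen genes silica 1 (-0.20) and smoke 1 (-0.355, median log2 deviations from the air mean) both lay between the air libraries and silica 2 to 6.

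Silica lung had 287 genes higher and 135 lower than air lung, of 13322 tested (2.15% and 1.01%). Rises were larger than falls: the called genes had a median log2 fold change of 0.78 upward and -0.52 downward, and a change of more than 2-fold was seen in 89 risen genes and 1 fallen gene. Over all tested genes the median was -0.00436. In 217 of the 287 risen genes, silica 2 to 6 all stood above every air library (3.62% of all tested genes did so), and in 90 of the 135 fallen genes they all stood below (2.71%). All 6 silica libraries lay above every air library in 28 risen genes (48 of all 13322 tested genes did so, 0.36%). They lay below in 32 fallen genes (71 of all tested genes did so, 0.533%).

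The library labelled silica 1 did not follow its group. Over the 287 risen genes its median deviation from the air mean was 0.01 on the log2(CPM + 0.5) scale, within the air libraries (-0.31 to 0.29), while silica 2 to 6 lay between 0.78 and 0.98. Over the 135 fallen genes silica 1 stood at -0.20, silica 2 to 6 at -0.46 to -0.79, and air 6 at 0.39, the farthest of the air libraries (-0.17 to -0.02 in the other air libraries). These genes were called from the same libraries, so the deviations only describe where each library lies. The labels were kept, and whether those of silica 1 and smoke 1 were exchanged was not tested. Without silica 1 the same model called 716 genes higher and 467 lower of 13539 tested (5.29% and 3.45%), and these included 285 of the 287 and 133 of the 135.

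**Figure D1:**
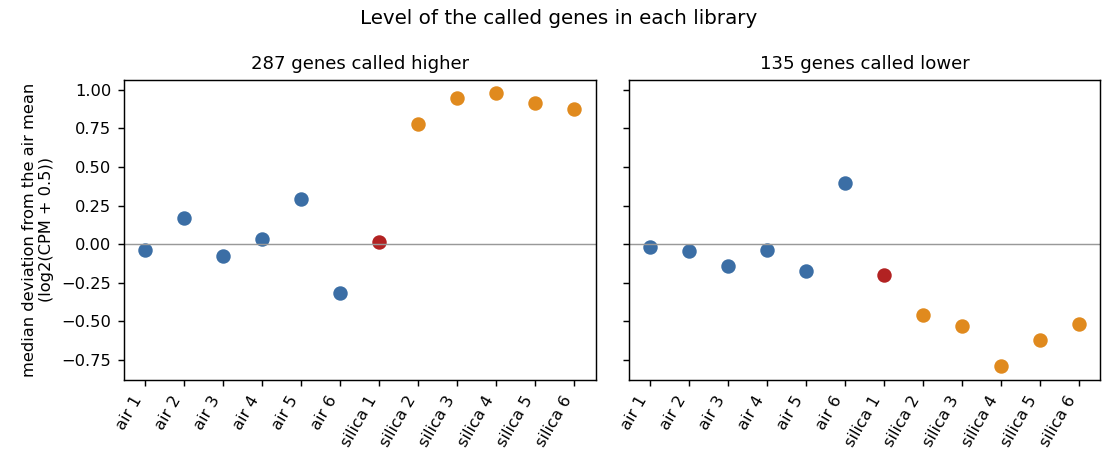
Median deviation of each air (blue) and silica (orange, silica 1 in red) library from the mean of the air libraries (for an air library, the mean of the other 5), on the log2(CPM + 0.5) scale, over the 287 risen genes (left) and the 135 fallen genes (right). Silica 2 to 6 lie at 0.78 to 0.98 on the left, silica 1 lies at 0.01 among the air libraries, and air 6 is the highest library on the right at 0.39.

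Single calls depended on which libraries were in the fit. Over the 12 fits that each left out 1 library, 89 risen and 6 fallen genes were called every time. Leaving out silica 2, 3, 5 or 6 lowered the counts to between 111 and 145 higher and between 11 and 35 lower. The lower count was also moved by air 1 (89 without it), air 5 (223), air 6 (63) and silica 4 (71). With silica 1 left out already, leaving out any 1 of the other 11 libraries gave 515 to 813 higher and 223 to 624 lower genes, and 389 and 148 genes were called in all 11 fits. Of the 95 called genes named below, 52 were called in all 12 fits, and 93 in all 11 further fits without silica 1; Col6a3 and Tnc were the exceptions. Limma voom did not call 58 of the named called genes and DESeq2 22. A fit of the 12 air and silica libraries alone did not call 45, and 10 named genes, Lpo among them, had too few counts to be tested in it. The 52 include every gene for which no library is named below as ending the call.

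Lpo, with the largest called log2 rise of all genes, and Slc26a4 belong to the chemical defence of the airway surface. Lactoperoxidase (Lpo, gene 287610) is secreted into airway fluid and uses hydrogen peroxide to turn thiocyanate into an antimicrobial product. Its transcript was at 0 in air 1 to 5 and at 0.205 CPM in air 6, and at 0 in silica 1, against 35.9 to 60.3 CPM in silica 2 to 6. In counts this was 1 in all air libraries together and 444 in the silica libraries, a ratio of rates of 650.1 with an exact 95% interval of 116 to 25730.0 that covers counting error only (fitted log2 fold change 8.43 ± 1.25, adjusted p = 0.000368). The fitted value depends on the prior count of the model. Slc26a4 (pendrin, 29440), an anion exchanger that can carry thiocyanate across airway epithelium, ran from 3.28 to 21.7 CPM (median 5.72) in air and 4.11 to 212 CPM (median 164) in silica. All of silica 2 to 6 were at or above 151 CPM, silica 1 was at 4.11, and the change was 3.87 ± 0.59 (adjusted p = 0.000447; 4.16 ± 0.46 without silica 1).

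Sources of the peroxide moved less. Duox1, an epithelial oxidase that makes hydrogen peroxide at the airway surface, ran from 7.88 to 13.9 CPM (median 9.73) in air and from 17.9 to 23.4 CPM in silica 2 to 6, with silica 1 at 9.59 (0.79 ± 0.21, adjusted p = 0.034; 0.95 ± 0.19 without silica 1). Noxo1, which organises the NOX1 oxidase of epithelia and which is on none of the lists and was chosen after its values were seen, rose by 1.60 ± 0.35 (adjusted p = 0.0113), from a median of 19.7 to 71.2 CPM. Nox4, an oxidase of mesenchymal and endothelial cells, fell by 0.51 on the log2 scale (adjusted p = 0.0496). Of 10 tested oxidase and nitric oxide genes, 2 rose (Lpo and Duox1), 1 fell and 7 did not pass, with a median of 0.49; without silica 1, 7 rose and 1 fell. Calls ended without air 1, 2, 3, 4 or 6 or silica 2, 3, 4, 5 or 6 (adjusted p of 0.052 to 0.173) for at least 1 of Duox1 and Nox4, and limma voom called none of Lpo (adjusted p = 0.296), Duox1, Noxo1 and Nox4.

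On the list of airway secretory genes, which does not hold Lpo, Chia passed. Chia (acidic mammalian chitinase, 113901), which degrades chitin and is made by secretory epithelium, ran from 82.0 to 129 CPM (median 119) in air. In silica it ran from 79.5 to 1004 CPM (median 803), and silica 1, at 79.5, was below every air library while the others were at or above 637 CPM (2.64 ± 0.37, adjusted p = 0.000317; 2.89 ± 0.26 without silica 1). Chia was the 1 riser of 12 tested airway secretory genes, whose median was -0.25; without silica 1 there were 3, with Pigr and Bpifb1 (a secreted antimicrobial family protein, log2 fold change 2.39). Scgb1a1 differed by 0.22 ± 0.24 (adjusted p = 0.692), and Pigr, which carries IgA into the airway, by 0.70 ± 0.21 (0.0587; 0.83 ± 0.19 and 0.00633 without silica 1). The 14 ciliated cell genes held no called gene, with a median of -0.22.

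Itgb8, the integrin beta chain that with its alpha V partner activates latent TGF-beta, was the 1 riser among 24 tested crosslinking and myofibroblast genes. It ran from 26.7 to 40.8 CPM (median 32.7) in air and from 85.0 to 115 CPM in silica 2 to 6, without overlap, with silica 1 at 29.7 (1.26 ± 0.20, adjusted p = 0.000555; 1.46 ± 0.14 without silica 1). Tgfbr1, the kinase subunit of the TGF-beta receptor, rose from a median of 92.9 to 151 CPM (0.64 ± 0.13, 0.00586), whereas the ligand Tgfb1 differed by 0.50 ± 0.19 and did not pass (0.146). The epithelial transcription factors Foxq1 and Elf3 rose by 1.09 ± 0.20 and 0.89 ± 0.18 (adjusted p = 0.0031 and 0.00586), and Elf3 was higher in all 6 silica libraries than in any air library. Tgfbr1, Foxq1 and Elf3 are on none of the lists and were chosen after their values were seen.

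Surfactant and type 2 cell genes were higher in part. Of 18 tested, 4 rose and none fell, 16 differences were positive, and the median was 0.46; without silica 1, 7 rose. Ctsh, a cathepsin that processes surfactant protein B, ran from 324 to 529 CPM (median 448) in air and 806 to 947 CPM in silica 2 to 6, with silica 1 at 361 (0.85 ± 0.18, adjusted p = 0.00954). Lamp3, a lamellar body protein, ran from 395 to 659.6 CPM (median 488) in air and 839 to 1238 CPM in silica 2 to 6 (0.78 ± 0.17, 0.0134), so that for both genes these 5 libraries lay above all air libraries. The epithelial mucin Muc1 rose by 0.98 ± 0.23 and Lpcat1, which makes surfactant phospholipid, by 0.57 ± 0.14 (adjusted p = 0.0188 and 0.0278). The abundant surfactant genes did not pass: Sftpa1 differed by 0.77 ± 0.31 (0.16), Sftpd by 0.62 ± 0.19 (0.0662; 0.78 ± 0.16 and 0.002 without silica 1) and Sftpc by 0.18 ± 0.28 (0.798).

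The summed level of the 19 listed type 2 genes was 26917 to 48003 CPM in air, 31219 in silica 1 and 58005 to 65404 in silica 2 to 6. The sum includes the lysozyme gene Lyz2, which macrophages express as well and which makes up most of the macrophage sum given below. The type 2 sum therefore does not measure type 2 cells alone, and the part of Lyz2 in its higher level was not tested. None of the 13 alveolar type 1 genes was called and 12 had negative differences, with a median of -0.15; Ager, their most abundant member, differed by -0.24 ± 0.16 (0.467). Of 11 epithelial injury genes, 1 rose (Lgals3, galectin 3, 0.91 ± 0.24, 0.0315). Calls of Muc1, Lpcat1 and Lgals3 ended without air 1, 3 or 4 or silica 2, 3, 4, 5 or 6 (adjusted p of 0.0502 to 0.0893), and limma voom did not call Ctsh (0.0516) or Lamp3 (0.0933).

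Chemokines that draw monocytes and neutrophils included the list with the highest median of all 45 over tested members, the CC chemokines. Of 8 tested CC chemokines 4 rose and none fell (median 1.04), and of 11 CXC and CX3C chemokines 3 rose and none fell (median 0.64). Without silica 1 the risers were 5 and 6. Without the filter on low counts, 6 of 15 CC chemokines rose (median 0.71). The 12 air and silica libraries alone called 1 of 7 CC chemokines. Upstream sequence is shown for 4 tested chemokines because NF-kB, a well known activator of chemokine genes, has a recognisable consensus. The 4 were picked because the window of each holds a match, so they do not stand for the risen chemokines as a group. Cxcl2 among them was not called with all libraries. Of the risen genes, Ccl2 and Ccl3 had no promoter sequence to search, and Ccl4 and Cx3cl1 are not shown. Each line gives the 150 bases before the start site from RefSeq (GRCr8), 5′ to 3′ on the gene's strand, with the matching bases in capitals.
Ccl7 (chr10:67513945-67514094, plus strand): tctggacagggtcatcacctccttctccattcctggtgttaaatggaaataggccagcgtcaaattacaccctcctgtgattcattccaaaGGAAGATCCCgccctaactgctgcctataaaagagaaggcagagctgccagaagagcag
Cxcl1 (chr14:17479322-17479471, minus strand): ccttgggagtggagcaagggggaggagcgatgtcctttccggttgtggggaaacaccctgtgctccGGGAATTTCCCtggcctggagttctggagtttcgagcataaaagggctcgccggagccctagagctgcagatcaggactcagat
Cxcl6 (chr14:17596418-17596567, minus strand): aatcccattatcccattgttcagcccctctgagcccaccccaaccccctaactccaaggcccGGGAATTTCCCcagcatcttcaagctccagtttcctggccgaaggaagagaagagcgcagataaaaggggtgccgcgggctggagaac
Cxcl2 (chr14:17467256-17467405, minus strand): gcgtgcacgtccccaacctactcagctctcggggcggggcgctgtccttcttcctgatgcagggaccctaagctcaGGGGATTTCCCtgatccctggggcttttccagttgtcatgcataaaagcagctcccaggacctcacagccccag
The matches begin 59, 84, 88 and 74 bases before the start in Ccl7, Cxcl1, Cxcl6 and Cxcl2. In the last 3 genes the capitals are 2 matches that overlap.

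The same search over all genes showed how common such letters are. The window ran from 250 bases before to 50 after the start, both strands were read, and 10363 tested genes had one, of which 222 had risen and 104 had fallen. The NF-kB consensus was found in 14% of risen and 14.4% of fallen genes, 9.79% of tested genes and 7.6% of all 27457 RefSeq promoters of that length. TGANTCA, the AP-1 motif, was in 9.91%, 5.77%, 4.99% and 7.33% of these sets, and GAGGAAGT, a form of the myeloid PU.1 motif, in 5.86%, 1.92%, 2.73% and 2.44%. TGACNNNGC, the core of the antioxidant response element, which can share bases with the AP-1 motif, was in 17.1%, 16.3%, 14.5% and 12.2%, and TCACGTGA, the core of lysosomal gene elements, in 0.901%, 0%, 1.7% and 0.867%. A match is a run of letters and not a bound site, and these shares carry no test.

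Among the chemokines, Ccl2 (24770), the main ligand that brings monocytes out of the blood, ran from 0.526 to 5.24 CPM (median 2.04) in air and 3.2 to 49.8 CPM (median 38.0) in silica. Silica 1 was at 3.2 and the others at or above 25.1 CPM (3.75 ± 0.54, adjusted p = 0.000321; 4.03 ± 0.44 without silica 1). Ccl7, a second monocyte ligand, ran from 0 to 1.64 CPM (median 0.981) in air and 9.39 to 19.6 CPM in silica 2 to 6, with silica 1 at 0.914 (3.42 ± 0.52, 0.000447). The CC ligands Ccl3 and Ccl4, made by activated macrophages, rose by 1.15 ± 0.28 and 0.92 ± 0.25 (adjusted p = 0.0225 and 0.041). Ccl3 and Ccl4, like Ccl2 and Ccl7, are close relatives, and reads could be split between them.

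Of 3 ligands of the neutrophil receptor Cxcr2, Cxcl6 and Cxcl1 rose. Cxcl6 (60665) ran from 0.205 to 4.88 CPM (median 2.63) in air, and from 33.2 to 43.1 CPM in silica 2 to 6 with silica 1 at 4.11 (3.71 ± 0.56, adjusted p = 0.000418). Cxcl1 had a higher base, from 12.1 to 39.6 CPM (median 25.9) in air to 54.4 to 86.1 CPM in silica 2 to 6 (1.24 ± 0.26, 0.00954). Cxcl2 stayed below 10 CPM in every library, though its value in silica 4 is 1 count. Cxcl2 did not pass with all libraries (1.42 ± 0.48, 0.0936), while without silica 1 it did (1.66 ± 0.46, 0.0203). Cx3cl1, a membrane-bound chemokine of epithelium and endothelium, rose by 0.72 ± 0.18 (0.026). Calls of Ccl3, Ccl4 and Cx3cl1 ended without air 2, 3, 4 or 6 or silica 2, 3, 4, 5 or 6 (adjusted p of 0.0504 to 0.124), and limma voom called none of these 7 (adjusted p of 0.0505 for Cxcl1 to 0.122 for Ccl7).

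**Figure D2:**
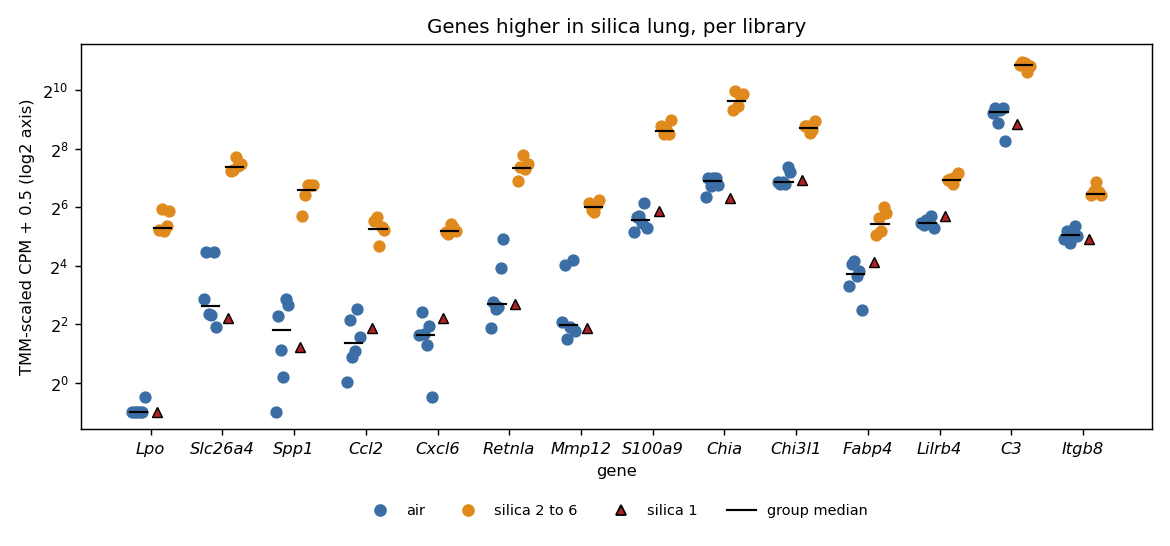
TMM-scaled CPM + 0.5 of 14 risen genes on a log2 axis, with 1 point per library in air (blue), silica 2 to 6 (orange) and silica 1 (red triangle), and a bar at the group median. For each gene silica 2 to 6 lie above all 6 air libraries, and silica 1 lies in the air range except in Chia, just below it, and Lilrb4, just above it.

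The interleukin 1 system rose at its ligand and its inhibitors. Il1b (24494), the inflammatory cytokine matured by the inflammasome, ran from 11.7 to 22.1 CPM (median 20.5) in air and 26.0 to 53.8 CPM (median 36.4) in silica, and here all 6 silica libraries, silica 1 included, lay above all air libraries (0.91 ± 0.18, adjusted p = 0.0043). Il1rn, the secreted receptor antagonist, ran from 11.9 to 25.4 CPM (median 17.9) in air and 35.9 to 57.8 CPM in silica 2 to 6 (1.19 ± 0.26, 0.0116). Il1r2, a decoy receptor carried by neutrophils and macrophages, ran from 0.659 to 2.1 CPM (median 1.35) in air and 8.09 to 17.9 CPM in silica 2 to 6 (2.51 ± 0.44, 0.00179). Its highest value rests on 5 counts in silica 4. Silica 1 had Il1rn at 15.5 and Il1r2 at 0.457 CPM, within or under the air range. These were the 3 called of 20 tested inflammasome and interleukin 1 genes (median 0.22). The sensor Nlrp3 itself differed by 0.21 ± 0.16 (0.534; 0.33 ± 0.15 and 0.183 without silica 1). Limma voom did not call Il1rn (0.0541) or Il1r2 (0.142).

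Growth factors of myeloid cells showed 1 riser among 13 tested cytokine and growth factor genes. Csf1, the factor on which macrophages depend, ran from 35.4 to 48.8 CPM (median 41.1) in air and 69.3 to 89.7 CPM in silica 2 to 6, with silica 1 at 38.8 (0.73 ± 0.14, adjusted p = 0.00522). Its receptor Csf1r ran from 211 to 242 CPM (median 221) in air and 218 to 254 CPM (median 228) in silica (0.03 ± 0.07, 0.889), and the groups overlapped. Csf2rb, the shared beta chain of the GM-CSF, IL-3 and IL-5 receptors, rose by 1.02 ± 0.18 (0.0024); it is on none of the lists and was chosen after its values were seen. Il4, Il5, Il13, Il17a and Csf3 had 0 counts in all 12 libraries.

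Neutrophil genes rose in part. S100a9 (94195) and S100a8, which pair as calprotectin in neutrophils and young monocytes, ran from 35.2 to 70.7 CPM (median 46.7) and 11.04 to 24.7 CPM (median 15.6) in air. In silica 2 to 6 they ran from 361 to 508 and 37.7 to 85.1 CPM, and silica 1 was at 58.0 and 20.6, inside the air range. The changes were 2.88 ± 0.40 (adjusted p = 0.000317) and 1.82 ± 0.32 (0.00174). Cxcr2 rose by 0.74 ± 0.19 (0.0291), and Csf3r, the G-CSF receptor, differed by 0.57 ± 0.17 without passing (0.0623; 0.69 ± 0.17 and 0.00891 without silica 1). Of 10 tested neutrophil markers 4 rose, none fell and all 10 differences were positive, with a median of 0.76. These are the members that passed the filter on low counts. Without that filter 16 were tested, 4 rose and the median was 0.25. The granule genes Mpo and Elane, defining markers of immature neutrophils, had 2 and 1 counts in all air libraries together and 0 in silica, and Ltf and Np4 had 0 in both groups. The summed level of the 17 markers was 139 to 234 CPM in air, 184 in silica 1 and 576 to 795 in silica 2 to 6, and their part in the other rises was not tested. The call of Cxcr2 ended without air 1, 3 or 6 or silica 2, 3, 5 or 6 (adjusted p of 0.0513 to 0.0896).

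Macrophage genes showed a rise in some receptors beside markers that did not pass. Itgam (CD11b, 25021), the integrin chain of recruited myeloid cells, ran from 24.2 to 34.2 CPM (median 27.8) in air and 66.2 to 82.4 CPM in silica 2 to 6, with silica 1 at 31.5 (1.19 ± 0.19, adjusted p = 0.000608). Siglec1, a sialic acid receptor of macrophages, rose by 0.86 ± 0.19 (0.0111) and the lysosomal marker Cd68 by 0.82 ± 0.23 (0.048). Mrc1, the mannose receptor of resident macrophages, differed by 0.18 ± 0.16 (0.593). Of 19 tested macrophage markers 3 rose and none fell (median 0.35), and 6 rose without silica 1. The summed level of the 20 markers, most of it Lyz2, was 9594 to 21976 CPM in air, 14040.4 in silica 1 and 28440.3 to 32720.1 in silica 2 to 6. Calls of Siglec1 and Cd68 ended without air 3, 4 or 6 or silica 2, 3, 4, 5 or 6 (adjusted p of 0.0549 to 0.206).

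Receptors that bind particles, antibody and lipids were unequal. Of 10 tested silica uptake receptors 2 rose, the oxidised lipoprotein receptor Olr1 (0.61 ± 0.16, 0.0282) and Msr1, the class A scavenger receptor, which ran from 23.97 to 108 CPM (median 66.6) in air and 128 to 154 CPM in silica 2 to 6 with silica 1 at 66.7 (0.93 ± 0.23, adjusted p = 0.0241). None of the 10 was called with DESeq2, limma voom or the 12 libraries alone, or without silica 2, 3, 5 or 6. Without silica 1, 3 rose and 1 fell. Marco, the scavenger receptor best known for silica binding, had 0 counts in air and 2 in silica and was too low to test. Among 18 myeloid receptors 4 rose and none fell (median 0.53), and 11 rose without silica 1. Lilrb4, an inhibitory receptor of myeloid cells, ran from 38.5 to 52.0 CPM (median 44.0) in air and 52.1 to 145 CPM (median 123) in silica, with all 6 silica libraries above the air libraries, silica 1 only just (1.37 ± 0.20, 0.000321). The inhibitory Fc receptor Fcgr2b rose by 1.39 ± 0.25 (0.00276), the inhibitory Cd300a by 0.99 ± 0.24 (0.0212), and Clec4d, an activating lectin receptor, by 0.86 ± 0.22 (0.026). Cd274 (PD-L1), an inhibitory ligand for T cells that is on none of the lists and was chosen after its values were seen, rose by 0.97 ± 0.19 (0.00422). Calls of Olr1, Msr1, Cd300a and Clec4d ended without air 3, 4 or 6 or silica 2, 3, 5 or 6 (adjusted p of 0.0502 to 0.11).

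Some genes of lipid handling, lysosomes and osteoclast-type cells rose. Spp1 (osteopontin, 25353), a secreted protein of scar-associated macrophages and osteoclasts, ran from 0 to 6.73 CPM (median 3.02) in air and 1.83 to 109 CPM (median 96.2) in silica. Silica 1 was at 1.83, in the air range, and the other 5 were at or above 51.0 CPM (4.39 ± 0.60, adjusted p = 0.000317; 4.68 ± 0.45 without silica 1). Fabp4, a fatty acid carrier of fat-laden macrophages, ran from 5.12 to 17.5 CPM (median 12.7) in air and 32.7 to 63.8 CPM in silica 2 to 6, with silica 1 at 16.9 (1.88 ± 0.27, 0.000321), and its relative Fabp5 rose by 1.00 ± 0.25 (0.0241). Of 19 lipid-handling genes 5 rose and none fell (median 0.40; 11 rose without silica 1).

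Osteoclasts and multinucleated macrophages share a set of genes, of which 10 were tested: 4 rose and none fell, with a median of 0.72, and Dcstamp, a fusion gene that helps define such cells, had 0 counts throughout. Limma voom called none of the 10. Beside Spp1, the receptor Oscar ran from 0.615 to 3.62 CPM (median 2.02) in air and 4.36 to 9.22 CPM (median 6.83) in silica (1.62 ± 0.36, adjusted p = 0.0143). All 6 silica values were above air, silica 1 included, but on few counts: 3 to 11 per air library, 10 in silica 1 and 2 in silica 4. The silica 4 value lies below the level of 3 counts in that library, so the separation is uncertain. Tnfrsf11a (RANK), the receptor of the osteoclast factor RANKL, rose by 1.03 ± 0.22 (0.00873), and Tnfsf11, which encodes RANKL itself, had 0 counts. Atp6v0d2, a proton pump subunit of osteoclasts and macrophages, rose by 1.43 ± 0.37 (0.0281).

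Lysosomal genes had small differences, nearly all of them positive. Of 33 tested, 6 rose, none fell and 31 differences were positive, with a median of 0.32 against -0.00436 for all genes. Without silica 1, 17 rose (median 0.41). No lysosomal gene was called with limma voom, with the 12 libraries alone, or without silica 3, 5 or 6. Npc2, which moves cholesterol out of lysosomes, ran from 328 to 644 CPM (median 483) in air and 871 to 1094 CPM in silica 2 to 6 with silica 1 at 416 (0.80 ± 0.19, adjusted p = 0.0215). The protease cathepsin S (Ctss) rose by 0.66 ± 0.16 (0.0221) and the proton pump subunit Atp6v1a by 0.40 ± 0.10 (0.026), while the abundant cathepsin D gene Ctsd differed by 0.54 ± 0.24 without passing (0.216). Rab7b, a late endosome regulator on none of the lists and chosen after its values were seen, rose by 1.73 ± 0.29 (0.000972). Calls of Fabp5, Atp6v0d2, Npc2, Ctss and Atp6v1a ended without air 6 or silica 2, 3, 5 or 6 (adjusted p of 0.0522 to 0.103), and limma voom did not call Spp1 (0.151), Oscar (0.0549) or Tnfrsf11a (0.0569).

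Single genes of macrophage activation and matrix degradation, Retnla and Mmp12, rose strongly, each as the 1 call of its list with all libraries. Retnla (81712), a resistin-like protein of epithelium and alternatively activated macrophages, ran from 3.15 to 29.7 CPM (median 5.92) in air and 119 to 219 CPM in silica 2 to 6, with silica 1 at 5.94 (3.41 ± 0.57, adjusted p = 0.000979); it was the 1 called of 12 tested activation genes. Mmp12 (117033), the macrophage elastase, ran from 2.31 to 17.9 CPM (median 3.45) in air and 57.4 to 75.8 CPM in silica 2 to 6, with silica 1 at 3.2 (3.00 ± 0.56, 0.0033), and was the 1 called of 17 tested proteases and inhibitors. Chi3l1, a chitinase-like protein without enzyme activity, ran from 110.1 to 165 CPM (median 117) in air and 373 to 492 CPM in silica 2 to 6 (1.56 ± 0.25, 0.000608). For all 3 genes silica 2 to 6 lay above every air library and silica 1 lay within the air range. Without silica 1 the activation genes held 3 risers, with Arg1 (0.98) and Irf5 (0.57), and the proteases and inhibitors 3, with Plaur (1.00) and Adam17 (0.37, log2 fold changes). Chi3l1 and Chia were 2 of 4 tested chitinase family genes called, and limma voom did not call Retnla (0.0569) or Mmp12 (0.0718).

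Complement genes rose in part. Cfi (79126), the protease that inactivates C3b, ran from 4.21 to 19.0 CPM (median 7.84) in air and 48.3 to 76.3 CPM in silica 2 to 6, with silica 1 at 6.85 (2.52 ± 0.41, adjusted p = 0.000972). C3, the central component, ran from 309 to 679 CPM (median 615) in air and 1581 to 2031 CPM in silica 2 to 6, with silica 1 at 458 (1.53 ± 0.28, 0.00276). Neither gene overlapped between air and silica 2 to 6. Factor B (Cfb), which forms the alternative convertase with C3b, rose by 1.07 ± 0.22 (0.00676), C5, which starts the terminal pathway, by 0.75 ± 0.19 (0.0247), and C4b by 0.95 ± 0.24 (0.0241); C4a and C4b are near copies, so their reads are uncertain. C4bpa, a regulator of C4b that is on none of the lists and was chosen after its values were seen, rose by 1.54 ± 0.27 (0.00237). Of 25 tested complement genes 5 rose and none fell (median 0.32), against 10 and 1 without silica 1.

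Acute phase genes are best known from liver, and several were higher in silica lung at low to moderate levels. Haptoglobin (Hp), which binds free haemoglobin, ran from 29.4 to 41.5 CPM (median 34.2) in air and 82.8 to 126 CPM in silica 2 to 6, with silica 1 at 26.9, below every air library (1.30 ± 0.25, adjusted p = 0.00375). The fibrinogen chain gene Fgg rose by 0.68 ± 0.15 (0.016) and the pattern recognition molecule Ptx3 by 1.47 ± 0.34 (0.018). Orm1 was at or below 0.659 CPM in every air library and at 0 to 4.92 CPM in silica (3.42 ± 0.83, 0.0219), so its fitted change rests on few counts. Of 9 tested acute phase genes 5 rose (these 4 and Lbp, which binds bacterial lipopolysaccharide, by 0.74 ± 0.19, 0.0278), none fell and all 9 differences were positive (median 0.77). Calls of C4b, C5, Fgg, Ptx3, Orm1 and Lbp ended without air 3, 4 or 6 or silica 2, 3, 5 or 6 (adjusted p of 0.05 to 0.0879), and limma voom did not call Cfb (0.0569).

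Among antioxidant genes the mitochondrial superoxide dismutase Sod2 had the lowest adjusted p. It ran from 92.6 to 139 CPM (median 121) in air and 252 to 298 CPM in silica 2 to 6, with silica 1 at 119.7 (1.07 ± 0.18, adjusted p = 0.000972). Haem oxygenase Hmox1 rose by 1.13 ± 0.25 (0.0111), although silica 4, the shallowest library, had the lowest level of all 12 (17.9 CPM), and the cystine importer Slc7a11 rose by 1.65 ± 0.39 (0.0193). Gstp1, a glutathione transferase, fell by 0.59 on the log2 scale (0.0195), with all 6 silica libraries below all air libraries. The list as a whole did not move to 1 side: of 24 tested 4 rose, 1 fell, 19 did not pass and the median was 0.07. Of 15 glycolysis and hypoxia genes 2 rose, the glucose carrier Slc2a1 by 0.70 ± 0.14 (0.00696) and the lactate exporter Slc16a3 by 1.07 ± 0.22 (0.00656); without silica 1, 5 rose, with the glycolytic enzyme genes Hk3, Ldha and Hk2 (log2 fold changes of 1.14, 0.55 and 0.47). Calls of Hmox1, Slc7a11 and Gstp1 ended without silica 3, 5 or 6 (adjusted p of 0.0519 to 0.095).

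Feedback, T cell, MHC and clock genes held few calls with all libraries. Zc3h12a (Regnase-1), an RNase that degrades cytokine messages, rose from a median of 13.7 to 32.3 CPM (1.16 ± 0.20, adjusted p = 0.00151), 1 of 4 risers among 15 NF-kB feedback genes. Icos, a costimulatory receptor of T cells, was the 1 called of 17 tested T and NK cell genes (0.97 ± 0.22, 0.016; list median 0.02), and RT1-Ba, a class II MHC chain, the 1 called of 18 antigen presentation genes (0.49 ± 0.12, 0.0253; median 0.32). Without silica 1, 5 antigen presentation genes rose, with RT1-Bb (0.72), RT1-Da (0.53), the invariant chain Cd74 (0.44) and the class II activator Ciita (0.42, log2 fold changes), and Per1 and Nfkbia were called lower (-0.86 and -0.58). RT1 genes are near-identical, so the reads of RT1-Ba, RT1-Bb and RT1-Da are uncertain. The transcription repressors Bhlhe40 and Bhlhe41 rose by 0.63 ± 0.14 and 0.98 ± 0.23 (0.0115 and 0.0177), 2 of 16 clock and clock output genes. Calls of Icos, RT1-Ba, Bhlhe40 and Bhlhe41 ended without air 3 or silica 2, 3, 5 or 6 (adjusted p of 0.0512 to 0.089).

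Outside the lists, Dhrs9, Tmem45b and Mab21l3 were among the 15 largest rises called in all 12 fits. Dhrs9, a retinol and steroid dehydrogenase, ran from 1.84 to 8.71 CPM (median 6.14) in air and 27.1 to 43.0 CPM in silica 2 to 6 (2.45 ± 0.40, adjusted p = 0.000972). Tmem45b rose by 2.85 ± 0.60 (0.00841) and Mab21l3 by 2.71 ± 0.52 (0.00395), from at most 2.24 and 1.12 CPM in air to at most 8.37 and 6.22 CPM in silica. Esr1, the oestrogen receptor alpha gene, chosen after its values were seen, ran from 5.74 to 12.1 CPM (median 8.15) in air and 20.6 to 50.2 CPM in silica 2 to 6, without overlap, in these male rats (1.65 ± 0.29, 0.00234; 1.89 ± 0.22 without silica 1). Silica 1 had Esr1 at 5.48 CPM, below every air library. Limma voom did not call Tmem45b (0.127), Mab21l3 (0.121) or Esr1 (0.057).

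On 15 of the 45 lists no gene rose. Over all tested genes 2.15% were called higher and 1.01% lower, so short lists without a call are near that share. B and plasma cell, interferon-stimulated, proliferation, cholesterol and eicosanoid genes had no call in either direction among 12, 17, 15, 18 and 11 tested members, with medians of -0.11, 0.07, 0.19, -0.02 and 0.05. In the combined group against smoke, 2, 0, 9, 14 and 2 of these members were called in either direction, against 1720 of all 13322 tested genes. Markers of tissue that a piece of lung can carry along also held no call: 7 cardiac muscle genes (summed level 26.2 to 253 CPM in air and 44.8 to 157 in silica), 6 erythroid and 5 mesothelial genes. Mast cell, eosinophil and adipocyte lists had 1 tested member each. Without silica 1, 4 cholesterol genes, 2 proliferation genes, the leukotriene enzyme gene Lta4h (0.40) and the eosinophil list's Siglec8 (0.63) rose, and the complement receptor gene Cr2 of the B cell list fell (-1.02, log2 fold changes).

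**Figure D3:**
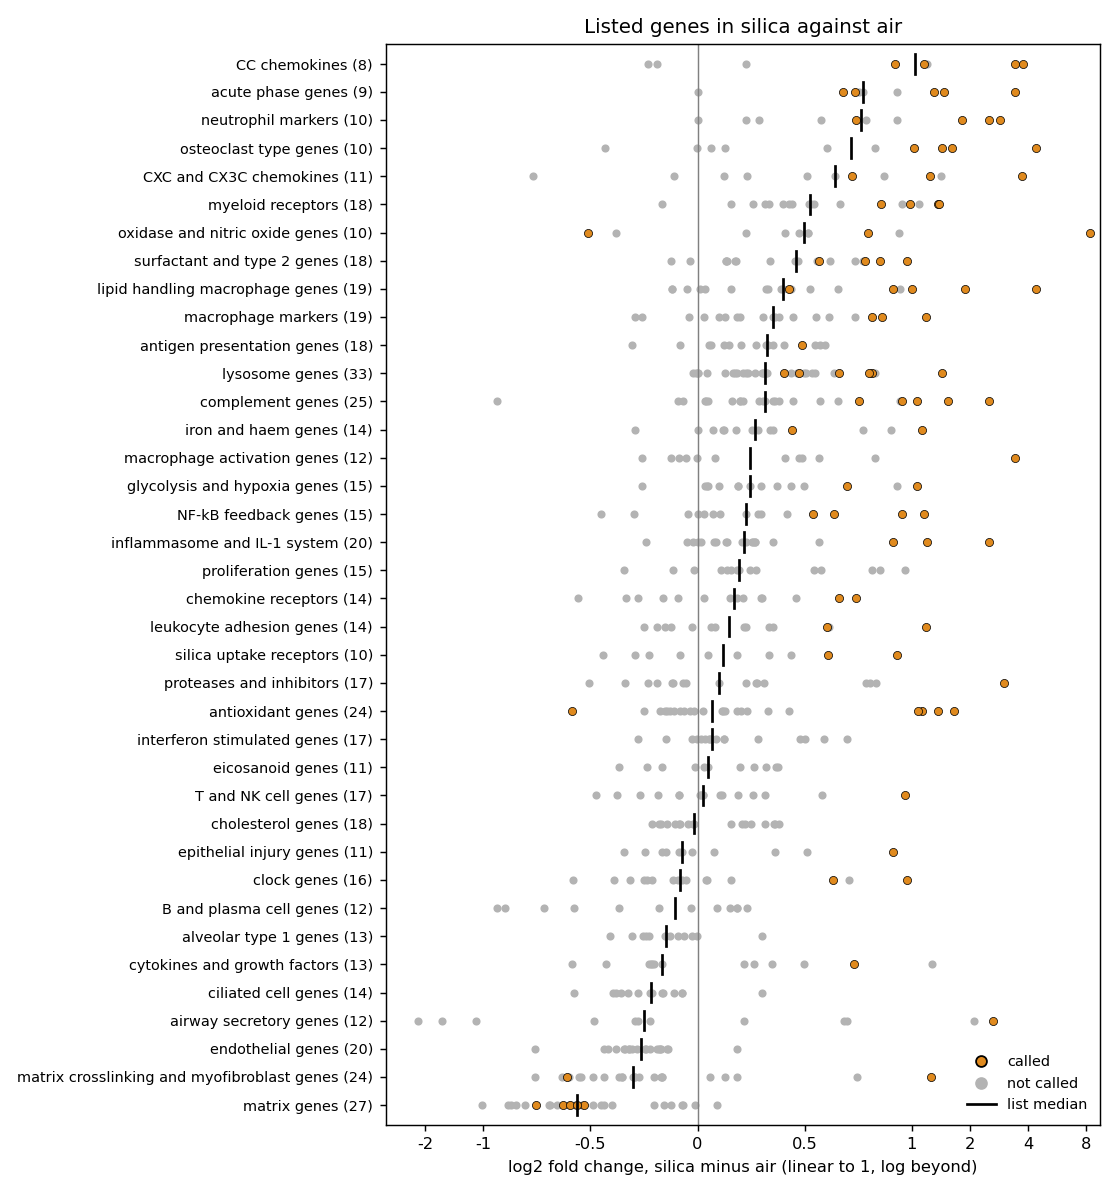
Log2 fold change, silica minus air, of every tested member of the 38 gene lists with at least 8 tested members (number in brackets), ordered by list median (black bar), on an axis that is linear to 1 and logarithmic beyond; orange points were called. CC chemokines have the highest median, 1.04, and matrix genes the lowest, -0.56.

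The 6 falls called in all 12 fits with 1 library left out were Sh3glb2, Adamts10, Cmklr1, Hspb1, Slc7a10 and Crispld2. Sh3glb2 (311848), of the endophilin family, ran from 16.5 to 30.9 CPM (median 18.9) in air and 9.84 to 15.2 CPM (median 10.6) in silica, without overlap, and silica 1, at 10.5, lay with its group (-0.84 ± 0.18, adjusted p = 0.00841). Silica 4 held only 3 counts of Sh3glb2, so its separation from air is uncertain. Crispld2, a secreted protein of lung mesenchyme, ran from 115 to 162 CPM (median 119) in air and 78.9 to 106 CPM (median 86.7) in silica, also without overlap (-0.52 ± 0.11, 0.00873). Cmklr1, the chemerin receptor, ran from 168 to 278 CPM (median 213) in air and 104 to 151 CPM in silica 2 to 6, with silica 1 in the air range at 185 (-0.60 ± 0.12, 0.00676). Adamts10, a metalloprotease bound to microfibrils, fell by 0.65, the small heat shock protein Hspb1 by 0.60 and the amino acid carrier Slc7a10 by 0.60 on the log2 scale (adjusted p = 0.00676, 0.0116 and 0.00546). Limma voom did not call Crispld2 (0.053), and the 12 libraries alone did not give a call for Sh3glb2, Adamts10 and Hspb1 (adjusted p of 0.0523 to 0.0574).

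The next 4 falls by the naming rule were called in 11 of the 12 fits. Smtnl2, a smoothelin-like gene, fell by 0.88, the RNA editing enzyme Adarb1 by 0.63, Plac9 by 0.62 and the calcium pump Atp2a3 by 0.47 on the log2 scale. All 6 silica libraries lay below all air libraries for Smtnl2 (uncertain, with only 3 counts in silica 4), Adarb1 and Atp2a3. Their calls ended without silica 5 (adjusted p of 0.0714 to 0.075) for Smtnl2 and Plac9 and without silica 6 (adjusted p of 0.0512 to 0.0547) for Adarb1 and Atp2a3, and DESeq2 did not call Sh3glb2 (adjusted p = 0.0519).

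Matrix genes tended lower in silica lung, by an amount and with a number of calls that depended on the libraries and the test. Of 27 tested 5 fell and none rose, 26 differences were negative and the median was -0.56; without silica 1, 9 fell, and without air 6, 2 fell and the median was -0.18. No matrix gene was called with limma voom, with the 12 libraries alone, or without silica 2, 5 or 6, and 1 was without silica 3. Col6a1, a chain of the beaded filament collagen VI, ran from 268 to 525 CPM (median 290.3) in air and 169 to 251 CPM (median 216) in silica, without overlap (-0.59 ± 0.14, adjusted p = 0.02). Air 6 held the highest value, 525 CPM, and without it the change was -0.39 (adjusted p = 0.0396). Col5a1, a regulator of collagen I fibrils, fell by 0.63 on the log2 scale (0.0292; 0.0476 without air 6). Col6a2 (-0.53 ± 0.15), Col6a3 (-0.56 ± 0.15) and the injury matrix protein tenascin C (Tnc, -0.75 ± 0.21) passed with air 6 and not without it (adjusted p = 0.11, 0.0685 and 0.127). With silica 1 and air 6 both left out, Col6a1, Col6a2, Col6a3 and Col5a1 passed (adjusted p of 0.00298 to 0.0242) and Thbs2, a matricellular protein gene, was called higher, while Tnc did not pass (0.121).

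Col1a1, the main fibrillar collagen chain of scar tissue, ran from 42.8 to 461 CPM (median 109.6) in air and 53.8 to 95.8 CPM (median 81.8) in silica and did not pass (-0.88 ± 0.36, adjusted p = 0.175). Its highest air value was that of air 6, at 461 CPM, and with silica 1 and air 6 left out the difference was 0.00398. Pdgfrb, the growth factor receptor of pericytes and fibroblasts, fell by 0.61 on the log2 scale (0.0374), the 1 fall among 24 crosslinking and myofibroblast genes with all libraries. Without silica 1 there were 6 falls, with Loxl2 (-0.83), Myh11 (-0.75), Acta2 (-0.58), Itgb5 (-0.42) and Pdgfra (-0.36, log2 fold changes). Besides air 6 (Pdgfrb 0.112), calls of Col6a1, Col6a2, Col6a3, Col5a1, Tnc and Pdgfrb ended in turn without air 1, 4 or 6 or silica 2, 3, 4, 5 or 6 (adjusted p of 0.0505 to 0.135). None of 20 endothelial genes was called, 19 differences were negative and the median was -0.26. Without silica 1, 4 fell, and in the combined group against smoke 12 of the 20 were called in either direction. Vwf, the endothelial clotting factor gene, differed by -0.34 ± 0.18 (0.324). The summed level of the 20 endothelial genes was 5785 to 7048 CPM in air, 7062 in silica 1 and 4406 to 5200.0 in silica 2 to 6. Its part in the falls was not tested.

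**Figure D4:**
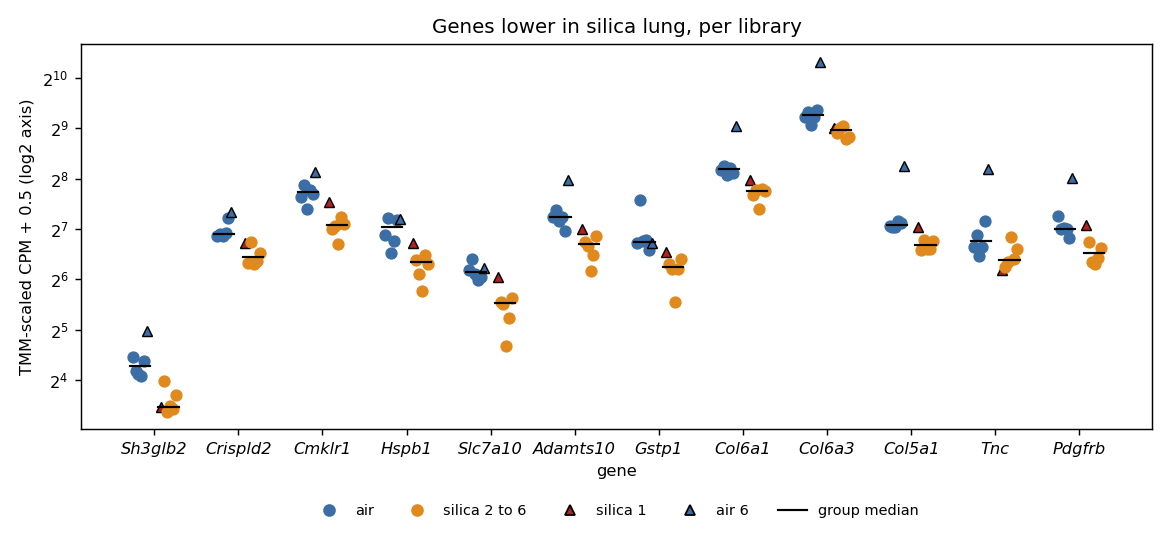
TMM-scaled CPM + 0.5 of 12 fallen genes on a log2 axis, with 1 point per library in air (blue, air 6 as a triangle), silica 2 to 6 (orange) and silica 1 (red triangle), and a bar at the group median. Air 6 is the highest library in the collagen genes, Tnc and Pdgfrb, at 525 CPM in Col6a1 and 1280 CPM in Col6a3.

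Leaving silica 1 out brought in 431 risen and 334 fallen genes that the 12 libraries together did not call. The 12 with the smallest p held epithelial and myeloid genes. Cxcl17, a mucosal chemokine, changed by 0.67 ± 0.12 without silica 1 (adjusted p = 0.000468) against 0.51 ± 0.15 with it (0.061). P2ry2, an epithelial receptor for extracellular nucleotides, changed by 0.92 ± 0.17 (0.000853), the pattern receptor Tlr2 by 0.89 ± 0.18 (0.0018) and cathepsin Z (Ctsz) by 0.80 ± 0.16 (0.002). Rhbdf2, Cotl1, Lrrc25, Sftpd and Enpp2 were also higher without silica 1, at log2 values of 0.70, 0.81, 0.96, 0.78 and 0.55, and Ehd3, Frem2 and Smarca2 were lower, at -0.49, -0.53 and -0.44. For 11 of these 12 genes silica 2 to 6 were all beyond every air library, and Cotl1 was the exception. The same libraries chose these genes, so this only describes where the libraries lie. Over all tested genes, silica 2 to 6 stood above every air library in 3.62% and below in 2.71%.

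The same dust week could be read in other animals, since the combined group differed from the smoke group by silica and by a slightly higher first week of smoke. That comparison shares no library with silica against air. It had 978 genes higher and 742 lower (7.34% and 5.57% of 13322). Of the 287 genes risen after silica alone, 282 were higher in the combined group and 213 of them were called; of the 135 fallen genes, 132 were lower and 56 were called. The interaction, which asks whether the 2 silica effects differ, called 0 genes with edgeR (977 at an unadjusted p under 0.05; DESeq2 called 1, limma voom 0 and voom with quality weights 9), and 8 without silica 1 and air 6. The library labelled smoke 1 deviated like a silica library over the 287 genes (median 0.72, against 0.11 to 0.22 in smoke 3 to 6). Smoke 2 held only 21629 counts, 56.0% of them from haemoglobin genes, against 0.249% to 1.54% in the other libraries. Both libraries stayed in the main fit, which also sets the spread used for silica against air. With smoke 1 and smoke 2 left out, an alternative chosen after seeing the data, 234 of the 287 and 69 of the 135 were called, and the interaction called 5 genes.

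Single genes are given here for their values in smoke-exposed rats, and the interaction was not called for any of them with edgeR and all libraries. Spp1 changed by 3.99 ± 0.51 in smoke-exposed rats (adjusted p = 2.95e-05), Lilrb4 by 1.76 ± 0.20 (5.32e-06), Itgam by 1.62 ± 0.19 (6.88e-06), Retnla by 3.69 ± 0.55 (0.000209) and Chia by 2.55 ± 0.38 (0.000186). Lpo changed by 2.77 ± 0.57 there (0.00262), and by 6.51 without smoke 1 and smoke 2. Some genes called after silica alone did not pass: Cxcl1 differed by -0.24 ± 0.28 (0.612), Zc3h12a by -0.02 ± 0.19 (0.966), Cxcr2 by 0.03 ± 0.19 (0.958) and Sh3glb2 by -0.01 ± 0.19 (0.996). Cxcl6 differed by 0.82 ± 0.47 (0.262) with all smoke libraries and changed by 2.24 (0.00153) without smoke 1 and smoke 2.

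**Figure D5:**
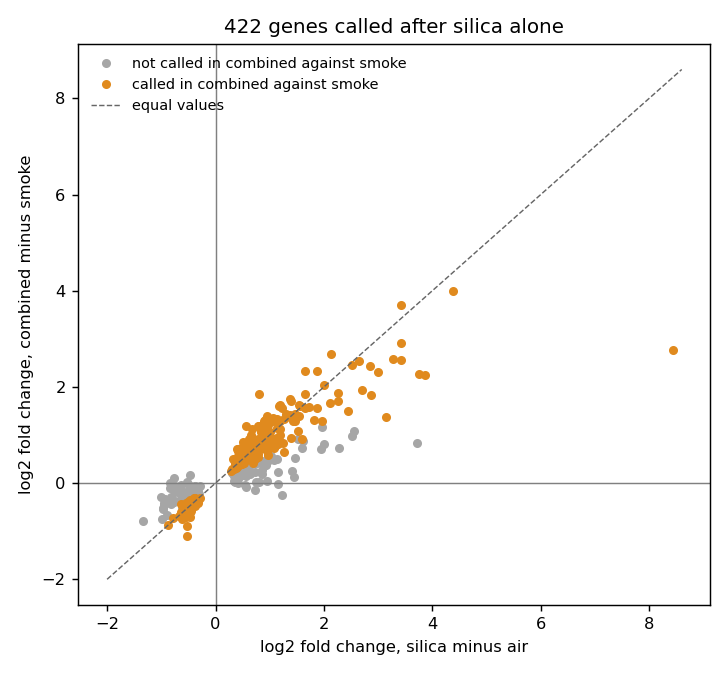
Log2 fold change of the 422 genes called after silica alone, silica minus air on the x axis and combined minus smoke on the y axis, from separate animals; orange points were also called in combined against smoke, and the dashed line marks equal values. Of the risen genes 282 of 287, and of the fallen genes 132 of 135, lie on the same side of 0 on both axes, and Lpo is the point at 8.43 and 2.77.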

How the data were processed

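RNA from a piece of lung of each rat was sequenced after ribosomal RNA depletion with a stranded total RNA kit, per the labels' protocols. The authors deposited 1 table of read counts per gene for 24 libraries. The submitters' processing notes name HTSeq 0.11.2, beside HISAT2 2.1.0, Trimmomatic 0.35, bcl2fastq 2.19, SAMtools 1.8 and Cufflinks, with no role or order. The genome build, the annotation and the strand setting were not given in the sources used here. Lines that repeat a gene were removed (26 of 30069), which left 30043 genes.

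The counts were fitted in R 4.3.3 with edgeR 4.0.16 (quasi-likelihood test, 24 libraries, 1 mean per group, TMM, filterByExpr with a minimum count of 10, 20 residual degrees of freedom) and Benjamini-Hochberg adjustment over 13322 genes. Standard errors were taken as the log2 fold change over the square root of F. Alternatives were RLE scaling, DESeq2 1.42.0, limma 3.58.1 voom with and without quality weights, no filter, the 12 libraries alone, and libraries left out. Totals of 280484 to 4687805 counts per library set the precision: 3 counts, the limit that a count of 0 allows, equal 10.7 CPM in silica 4 and 0.64 CPM in air 6, and intervals and limits cover counting error only.

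The comparison, the 45 gene lists (711 of 716 listed genes were found) and the tests were chosen with earlier results of these data known. Genes are named by a rule: the largest rises and falls called with every library left out in turn (filled to 10 falls), with a mean of at least 1 CPM; of each list up to 4 called genes and the 2 most abundant others; 12 genes called without silica 1 and not with it; and a few well-known genes. Foxq1, Elf3, Cxcl2, Csf2rb, Tgfbr1, Atp6v1a, Rab7b, C4bpa, C5, Fgg, Gstp1, Noxo1, Cd274, Esr1 and Col6a2 fall outside this rule and were chosen after their values were seen, as were Thbs2 and the genes named only for a call without silica 1 that their list did not have with it. A gene on each of 2 lists is not reported here and was left out of its list. Promoters came from RefSeq (GRCr8), matched by symbol or gene ID.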

Additional observations from a re-analysis of the deposited data

Results flagged for a closer look

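Dixon's test for a library far from the other 5 of its group was run on 121 genes and on the total count, in air and in silica. It picked out 43 values in 244 groups. Most of the genes were chosen from these same libraries, some because they were called only without silica 1, and all groups share the same libraries. The usual chance rate of about 1 in 20 groups is therefore no yardstick here, and the values only describe where libraries lie. The highest or lowest library was picked out where its gap to the next one took up most of the group's range.

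Silica 1 accounted for 28 of the 43. It was the lowest of the silica libraries in these genes, at the following TMM-scaled CPM: Slc26a4 4.11, Itgb8 29.7, Ctsh 361, Sftpa1 4904, Sftpc 4345, Pigr 803, Foxq1 14.2, Cxcl6 4.11, S100a9 58, Itgam 31.5, Lilrb4 52.1, Msr1 66.7 and Npc2 416. The others were Ctsd 870, Mmp12 3.2, Chi3l1 121, C3 458, Cfb 487, C4bpa 42, C5 101, Sod2 120, Tmem45b 0.457, Cxcl17 54.8, Tlr2 7.76, Enpp2 130 and Lgals3 164. It was the highest silica library in Vwf 1435 and Ehd3 102 CPM. In these genes other than Sftpc, Vwf and Ehd3, silica 2 to 6 lay above every air library.

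Air 6 accounted for 12. It was the highest air library in these genes, in CPM: Lpo 0.205, Sh3glb2 30.9, Adamts10 250, Adarb1 299, Plac9 62.1, Col6a1 525, Col6a2 530, Col6a3 1280, Col5a1 305, Tnc 292, Col1a1 461 and Pdgfrb 257. For Lpo this is a single count, and the rest are mainly mesenchymal and matrix genes.

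The other 3 values were Scgb1a1 at 2459 CPM in air 1, Gstp1 at 190 CPM in air 2 and Clec4d at 46.6 CPM in silica 4, each the highest of its group. Silica 4 was the shallowest of the 12 libraries.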

How the results depend on the processing

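With edgeR and all libraries, 287 genes were higher and 135 lower. DESeq2 called 148 and 41, limma voom 83 and 21, voom with quality weights 577 and 332, and a fit of the 12 air and silica libraries alone 80 and 11. Leaving out silica 1, smoke 1 and smoke 2 together gave 815 and 799, silica 1 and air 6 together 669 and 439, and smoke 1 and smoke 2 together, chosen after seeing the data, 424 and 221. RLE scaling (259 and 167) and no filter (302 and 151) stayed within 1.5 times. Leaving out 1 library gave 111 to 716 higher and 11 to 467 lower genes; with silica 1 already out, an alternative chosen after seeing the data, 515 to 813 and 223 to 624.

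Genes called after silica alone and also for silica in smoke-exposed rats numbered 269 (213 higher and 56 lower). This was 122 with DESeq2, 80 with limma voom, 649 with quality weights, 1093 without silica 1, smoke 1 and smoke 2, 465 without smoke 1 and smoke 2, 766 without silica 1 and air 6, and 97 to 704 with 1 library left out.

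Of the 121 genes followed through these alternatives, Col1a1 alone changed sign, to a log2 difference of 0.00306 with quality weights and 0.00398 without silica 1 and air 6. Calls were lost in 58 genes with limma voom, 45 with the 12 libraries alone (which tested 111 of the 121), 22 with DESeq2 and 1 with RLE scaling, and in 29, 32, 36 and 36 without silica 2, 3, 5 and 6; none was lost without silica 1. The cause was not tested, except that fits with fewer libraries have fewer residual degrees of freedom. Depth limits genes near the level of 3 counts, most of all in silica 4.

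No paired analysis was possible because the labels give animals no numbers shared between groups.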
